A study of Mus musculus with 20 samples.

Results

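Endothelial cells of the regenerating mouse sciatic nerve were sorted with 2 different reporters, which are compared at the same time after injury. The groups are 3 libraries of control mice carrying a Kdr-Cherry reporter (labelled Plxnd1 WT, called WT Cherry below) and 5 libraries of Plxnd1 WT mice in which the Cdh5(PAC)-CreERT2 driver drives R26-TdTomato, a Rosa26 reporter behind a removable stop (called Tomato below). All 8 were taken from the injured nerve 7 days after injury, out of 20 libraries in the whole series. The other 12 libraries appear only as values: 3 of Kdr-Cherry mice with endothelial Plxnd1 deletion through Cdh5 CreER and Plxnd1 fl/fl alleles (KO Cherry, 7 days), 5 of intact Tomato nerve and 4 of Tomato nerve at 14 days. Which alleles the control Cherry mice carried beyond the reporter is not stated here, and neither are tamoxifen, the age of the Cherry mice (the intact Tomato nerves came from adults) or the number of animals behind a library. Each group holds both of the labelled batches, with 2 WT Cherry and 3 Tomato libraries in batch 1292, and 1 WT Cherry and 2 Tomato libraries in batch 1133. Nerves were pooled before dissociation, reporter-positive cells negative for CD45, the pan-leukocyte surface protein, were collected, and polyA RNA was sequenced. The study's design text calls the injured tissue the bridge, the new tissue across the lesion, while the condition labels speak of a crush. The reporter, the mouse line and the experiment differ together between the groups, so they cannot be told apart. Both groups expressed endothelial markers. A list of 22 pan-endothelial genes summed to 20658 to 22494 CPM in WT Cherry and 13037 to 19541 CPM in Tomato. CPM is a scale of counts relative to the library total. A list of 17 fibroblast genes summed to 1254 to 2927 CPM in WT Cherry and 5092 to 23755 CPM in Tomato. In Tomato replicates 4 and 5 the fibroblast sum was above the pan-endothelial sum.

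Kdr encodes VEGF receptor 2, the main signalling receptor for VEGF-A on blood vessels. Cdh5 encodes VE-cadherin, the adhesion protein of endothelial junctions. A Kdr reporter follows the activity of the Kdr gene at the time of sorting. The Tomato reporter works through recombination: once Cre made from Cdh5 sequences has cut out a stop cassette, the cell and its descendants stay red whatever Cdh5 does afterwards. Peripheral nerve also holds perineurial cells, which form a barrier sheath with tight junctions, endoneurial and epineurial fibroblasts, Schwann cells, pericytes and macrophages.

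RefSeq promoter sequences (GRCm38.p6, 250 bases before to 50 bases after the start, written 5′ to 3′ on the gene's strand) are shown for the gene behind one reporter, for an endothelial gene that was higher in WT Cherry (Emcn, endomucin) and for a perineurial gene that was lower there (Cldn1, claudin 1). Capitals mark AGGAAG or CCGGAA, 2 forms of the site that endothelial ETS factors can bind, on either strand. The promoter of Kdr lies at chr5:75978406-75978705 (minus strand), that of Emcn at chr3:137340828-137341127 (plus strand) and that of Cldn1 at chr16:26371790-26372089 (minus strand).
Kdr: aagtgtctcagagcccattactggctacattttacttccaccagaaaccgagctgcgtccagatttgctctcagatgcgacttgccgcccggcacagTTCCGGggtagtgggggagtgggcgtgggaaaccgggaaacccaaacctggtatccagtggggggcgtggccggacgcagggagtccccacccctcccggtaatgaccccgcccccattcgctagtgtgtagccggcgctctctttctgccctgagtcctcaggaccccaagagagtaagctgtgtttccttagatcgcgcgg
Emcn: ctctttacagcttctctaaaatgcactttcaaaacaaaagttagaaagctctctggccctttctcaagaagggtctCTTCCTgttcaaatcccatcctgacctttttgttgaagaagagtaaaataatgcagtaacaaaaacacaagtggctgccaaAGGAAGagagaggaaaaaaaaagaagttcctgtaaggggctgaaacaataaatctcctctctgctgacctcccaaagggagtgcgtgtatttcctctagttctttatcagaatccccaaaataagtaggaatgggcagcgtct
Cldn1: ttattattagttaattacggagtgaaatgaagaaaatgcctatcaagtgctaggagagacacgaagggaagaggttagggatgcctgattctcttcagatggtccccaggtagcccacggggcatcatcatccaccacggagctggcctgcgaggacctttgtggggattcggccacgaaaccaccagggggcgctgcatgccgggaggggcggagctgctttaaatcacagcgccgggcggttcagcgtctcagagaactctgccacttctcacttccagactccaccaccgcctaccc
The Kdr window holds 1 match to CCGGAA, the Emcn window 2 matches to AGGAAG and the Cldn1 window no match. Of the 32851 promoters in the RefSeq table, 45.2% hold at least 1 of the motifs (AGGAAG 35.4%, CCGGAA 14.9%). Of 15 promoters found for 11 of the 22 genes of the pan-endothelial list used below, 10 hold one. Cdh5 has no entry in the table.

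Levels are given in CPM, the counts of a gene relative to the library total, after TMM scaling of all libraries together, which corrects for depth and composition. Differences are log2 fold changes of WT Cherry over Tomato from edgeR's quasi-likelihood test with batch as a covariate, given ± their standard error, and a gene is called at a Benjamini-Hochberg adjusted p under 0.05. Of 17730 genes tested, 330 (1.86%) were higher and 1112 (6.27%) lower in WT Cherry, 1442 (8.13%) in all, so 77.1% of the calls were lower. The sides differed in size: 92 genes were higher and 920 lower by at least 2-fold, and 243 were lower by at least 16-fold. All 1442 had the same sign in both batches, and in 1220 the libraries of the groups did not overlap. The calls were made on these same libraries, and batch 1133 holds 1 WT Cherry library, so neither count is a separate check. Over all tested genes 2146 (12.1%) did not overlap, 743 (4.19%) with WT Cherry above and 1403 (7.91%) with WT Cherry below. Scaling instead to the summed counts of 22 pan-endothelial genes shifted the median of all tested genes from 0.01 to -0.43 and left 73 higher and 3311 lower calls, 97.8% lower. The number of higher calls fell to 208, 181 and 138 without WT Cherry replicates 1, 2 and 3 and to 166 without Tomato replicate 5, and that of lower calls to 651 without WT Cherry replicate 3.

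**Figure D1:**
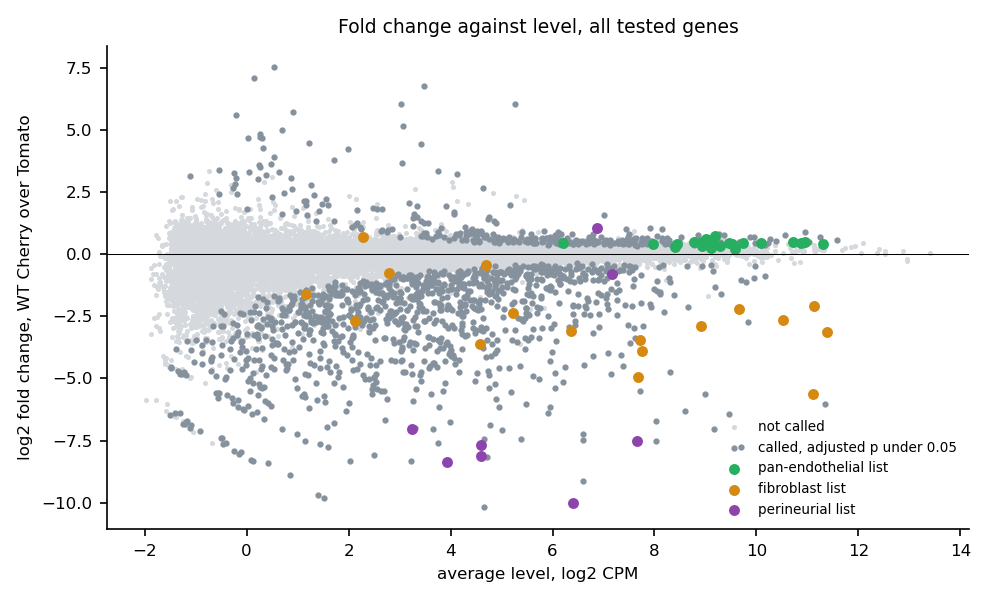
Log2 fold change (WT Cherry over Tomato, 7 days) against average level in log2 CPM for each tested gene, with the 1442 called genes in dark grey and 3 gene lists in colour. The pan-endothelial genes sit just above 0, while 13 of 17 fibroblast genes and 7 of 8 perineurial genes were called lower, down to -10.02.

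Depth was 23562704 to 27326911 counts in WT Cherry and 20460409 to 32966633 counts in Tomato, and mitochondrial genes took 1.74% to 3.42% of counts over the 8 libraries. Tomato replicate 3 stood apart from the other 4 Tomato libraries. It was the lowest of the 5 Tomato libraries in 900 of the 1112 genes called lower in WT Cherry (80.9%), against 22.7% of all tested genes. Results that rest on it are given with and without it. Over 9981 genes, its correlation of log2 CPM with the WT Cherry libraries was 0.94 to 0.952, against 0.849 to 0.905 for the other Tomato libraries, a description across genes. Tomato replicate 4 carried the most macrophage RNA (Lyz2, lysozyme, at 245 CPM, against 2.79 to 16.8 CPM in the other Tomato libraries). Ddx3y, a Y-linked gene, was at 113 CPM in Tomato replicate 1 and 0 in the other Tomato libraries, whereas every WT Cherry library held both Xist and Y-linked RNA.

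Of the genes behind the reporters neither passed the test with all 8 libraries. Kdr (chromosome 5, 75932827-75978458, minus strand, GRCm38) was at 763, 704 and 835 CPM in WT Cherry and at 533, 389.8, 772, 338 and 336 CPM in Tomato. Tomato replicate 3 lay inside the WT Cherry range, and the other 4 Tomato libraries lay below it. The log2 fold change of 0.73 ± 0.23 did not pass (adjusted p = 0.0861), nor did a two-sided exact permutation test of log2 CPM (difference 0.77, p = 0.0893, 3 against 5 libraries, for which 0.0179 is the smallest p). Without Tomato replicate 3 the log2 fold change was 0.91 (adjusted p = 0.00091). Only that Tomato library overlapped, so leaving it out separated the groups by choice and cannot test the difference. Leaving out any one of the other 7 libraries gave no pass (adjusted p = 0.107 to 0.457).

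Cdh5 (chromosome 8, 104101625-104144511, plus strand) was at 681, 612 and 540.1 CPM in WT Cherry and at 699, 463, 615, 417 and 388 CPM in Tomato. The groups overlapped, with Tomato replicate 1 the highest of all 8. The log2 fold change was 0.23 ± 0.14 (adjusted p = 0.404). Within libraries, which no scaling touches, the ratio of Kdr to Cdh5 counts was 1.12, 1.15 and 1.55 in WT Cherry and 0.762, 0.842, 1.26, 0.809 and 0.867 in Tomato. Again only Tomato replicate 3 reached the WT Cherry values. The difference of the log2 ratios was 0.50 (two-sided exact permutation p = 0.0893). Without Tomato replicate 3 it was 0.62 (two-sided exact permutation p = 0.0286, the smallest that 3 against 4 libraries allow). That library was the only one that overlapped, so leaving it out separated the groups by choice and cannot test the difference. Leaving out any other single library gave two-sided exact permutation p = 0.0952 to 0.238. Plxnd1, the gene deleted in the KO line, was at 358, 327 and 361 CPM in WT Cherry and 315, 220.1, 372, 198 and 187 CPM in Tomato (log2 fold change 0.45 ± 0.18, adjusted p = 0.184).

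**Figure D2:**
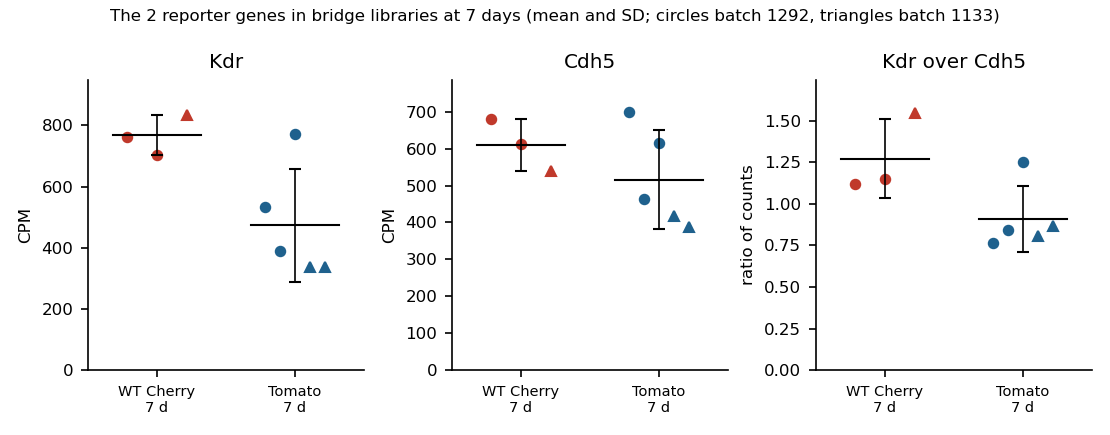
Level of Kdr and Cdh5 in CPM and the ratio of their counts in each library, with mean and SD, WT Cherry (3 libraries) left of Tomato (5 libraries). Tomato replicate 3, at 772 CPM of Kdr and a ratio of 1.26, lies among the WT Cherry libraries, the other Tomato libraries lie below them, and Cdh5 overlaps.

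All 22 endothelial identity genes of the pan-endothelial list had a positive log2 fold change, from 0.20 to 0.73, with a median of 0.44 beside 0.01 for all tested genes. Of them 6 were called higher and none lower: Emcn, Esam, Egfl7, Eng, Sox18 and Cd34. Summed over the list the level was 20658, 21285 and 22494 CPM in WT Cherry and 16691, 15822, 19541, 14414 and 13037 CPM in Tomato. Every WT Cherry library lay above every Tomato library, with Tomato replicate 3 the nearest. The number called was 13 without Tomato replicate 3, 3 without WT Cherry replicate 1 or Tomato replicate 5, and 0 without WT Cherry replicate 3. It was also 0 when scaled to the list itself, a scaling that removes the list's own shift and so cannot test it. With the Y-linked level as a covariate the number was 0 by the same test, while the list median stayed at 0.41. At an unadjusted p under 0.05 these last 3 fits had 8, 0 and 8 genes higher, against 18 in the full fit.

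Cd34, a sialomucin of endothelial and progenitor cells, was at 2401, 2351 and 2106 CPM in WT Cherry and at 1742, 1621, 1802, 1621 and 1453 CPM in Tomato. The groups did not overlap, and the log2 fold change was 0.46 ± 0.10 (adjusted p = 0.0113). Emcn, a mucin of capillaries and veins, was at 1374, 1144 and 1369 CPM in WT Cherry and at 915, 991, 982, 920.0 and 979 CPM in Tomato. Tomato replicate 3 sat among the other Tomato libraries (0.44 ± 0.10, adjusted p = 0.0214). Sox18, a SoxF transcription factor of vessels, was at 559, 659 and 741 CPM against 380.1 to 464 CPM in Tomato (0.61 ± 0.12, adjusted p = 0.008). Pecam1, the junction protein CD31, was at 2875, 2963 and 3145 CPM in WT Cherry and at 2212, 2129.6, 2839.6, 2188 and 1866 CPM in Tomato. It did not pass the test (0.41 ± 0.13, adjusted p = 0.0789), although the groups did not overlap. Of the calls just given, that of Sox18 was lost without WT Cherry replicate 3 (adjusted p = 0.0751), that of Cd34 without WT Cherry replicates 1 or 3 (up to 0.0537) and that of Emcn without WT Cherry replicates 1 or 3 or Tomato replicates 1 or 5 (up to 0.109).

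Genes of vein and venule endothelium gave the highest list median among the blood vessel subtypes, 0.49 over 11 tested members of 12. The pan-endothelial median was 0.44. Without WT Cherry replicate 3 the venous median was 0.21, below the capillary median of 0.26, so the ranking rests on that library. Called higher were Ackr1, Selp, Lrg1, Aplnr and Sele, and called lower was Nr2f2. Selp, the P-selectin that captures leukocytes, was at 834, 846 and 997 CPM in WT Cherry and at 586, 538, 661, 397 and 418 CPM in Tomato. All WT Cherry libraries were above all Tomato libraries (log2 fold change 0.79 ± 0.15, adjusted p = 0.0065). Ackr1, a chemokine-binding receptor of venules, was at 562, 622 and 665 CPM in WT Cherry and 369, 539, 395, 224 and 323 CPM in Tomato, also without overlap (0.76 ± 0.19, adjusted p = 0.0329). Lrg1, a secreted modulator of TGF-beta signalling in vessels, was at 1500.2, 1944 and 2632 CPM in WT Cherry and 947 to 1351 CPM in Tomato (0.77 ± 0.17, adjusted p = 0.017). Selp kept its call in all 8 fits that left out 1 library. Lrg1 lost it without WT Cherry replicates 2 or 3 (adjusted p up to 0.136), and Ackr1 without WT Cherry replicates 2 or 3 or Tomato replicates 1 or 5 (up to 0.235).

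Nr2f2, which encodes the vein-specifying factor COUP-TFII and is also made in stromal cells, went the other way. It was at 73.1, 88.2 and 58.8 CPM in WT Cherry and at 209, 142, 98.0, 149 and 132.8 CPM in Tomato. The groups did not overlap, and Tomato replicate 3 was the lowest Tomato library (-1.02 ± 0.21, adjusted p = 0.0133, lost without WT Cherry replicates 1 or 3 with adjusted p up to 0.142). Scaled to the pan-endothelial list, 0 venous genes were called higher (1 at an unadjusted p under 0.05) and 1 lower. The 5 higher calls became 1 without WT Cherry replicate 3, 3 without WT Cherry replicate 2 and 2 without Tomato replicate 5.

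The leukocyte adhesion list, which shares Sele, Selp and Ackr1 with the venous list, had 4 of 12 called higher and 1 lower. The fourth rise was Csf3, the granulocyte growth factor G-CSF, at 30.7, 35.9 and 27.4 CPM in WT Cherry and at 18.6, 17.8, 14.5, 13.4 and 11.3 CPM in Tomato. The groups were apart (1.04 ± 0.15, adjusted p = 0.00115), and KO Cherry libraries, at 17.3, 21.3 and 13.9 CPM, lay below WT Cherry. Ccl2, the monocyte chemokine, was lower at 28.2, 29.8 and 31.1 CPM in WT Cherry, against 43.5, 48.9, 48.5, 46.8 and 52.3 CPM in Tomato (-0.69 ± 0.11, adjusted p = 0.00293). Tomato replicate 3 sat among the other Tomato libraries for Ccl2. Csf3 and Ccl2 kept their calls in all 8 fits that left out 1 library, while the list had 2 higher calls without WT Cherry replicate 3 or Tomato replicate 5, and 1 higher and 2 lower when scaled to the pan-endothelial list. Glycam1, a selectin ligand of high endothelial venules and singled out after its values were seen, was at 11.9, 22.2 and 17 CPM in WT Cherry and 5.55 to 8.74 CPM in Tomato (1.33 ± 0.22, adjusted p = 0.00342).

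Capillary genes had 4 of 18 called higher and 2 lower, with a median of 0.36. The rises were Rgcc, Cd36, Tmem252 and Aqp1. Rgcc, a cell cycle regulator of capillary endothelium, was at 384, 379.7 and 399 CPM in WT Cherry and at 233, 203, 263, 297 and 262 CPM in Tomato. Every WT Cherry library was higher (0.64 ± 0.11, adjusted p = 0.00401). Aqp1, a water channel, was at 2582, 2583 and 3030.2 CPM in WT Cherry and 2087, 2007, 1418, 1005 and 1070.4 CPM in Tomato (0.89 ± 0.20, adjusted p = 0.0175). Its difference of mean log2 CPM was 0.51 in batch 1292 and 1.55 in batch 1133, and the call was lost without WT Cherry replicate 3 or Tomato replicate 5 (adjusted p up to 0.119). Rgcc kept its call in all 8 such fits.

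Slc16a1, the lactate carrier MCT1 that barrier endothelium and perineurium both use, was among the lower genes. It was at 33.2, 28.0 and 37.4 CPM in WT Cherry, against 291, 234, 83.3, 474 and 359 CPM in Tomato (-2.98 ± 0.44, adjusted p = 0.00538, and 0.0837 without WT Cherry replicate 3). Tomato replicate 3 was the lowest of its group, as it was for 6 of the 8 perineurial genes below. The count of capillary rises was 1 without WT Cherry replicate 3 or Tomato replicate 5, 2 without WT Cherry replicate 2 or Tomato replicate 4, and 0 when scaled to the pan-endothelial list, also at an unadjusted p under 0.05. The 2 falls (the other was Pltp, a phospholipid transfer protein) became 1 without any of the WT Cherry libraries or Tomato replicate 1.

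Arterial genes had 2 of 17 higher (Gja4, the gap junction protein connexin 37, and Hey1, a Notch target) and 1 lower (Mgp), with a median of 0.20. Gja4 was at 254, 331 and 245 CPM in WT Cherry and at 185, 234, 227, 137 and 109 CPM in Tomato (0.65 ± 0.15, adjusted p = 0.0209). The 2 Tomato libraries of batch 1133 were the lowest. Mgp, matrix Gla protein, which fibroblasts and smooth muscle also make, was at 257, 293 and 328 CPM in WT Cherry and at 506, 963, 481, 886 and 943 CPM in Tomato (-1.33 ± 0.22, adjusted p = 0.00329). Gja4 lost its call without WT Cherry replicates 2 or 3 or Tomato replicate 5 (adjusted p up to 0.174), and Mgp without WT Cherry replicate 3 (0.06). The rises in the list were 5 without Tomato replicate 3, 1 without Tomato replicates 1, 2 or 4, and 0 without WT Cherry replicates 2 or 3, without Tomato replicate 5 or when scaled to the pan-endothelial list.

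Of 20 tip cell genes, which mark sprouting, 6 did not overlap between the groups, beside 12.1% of all tested genes. The log2 fold change was positive in 16 of the 20, beside 9059 of 17730 tested genes. In the tip cell list 3 of 20 were higher (Angpt2, Pdgfb and Plvap) and 1 lower (Ramp3), with a median of 0.23. Angpt2, the Tie2 ligand that loosens vessels for sprouting, was at 325, 283 and 242 CPM in WT Cherry and at 166, 199.8, 239.9, 196 and 167 CPM in Tomato. WT Cherry replicate 3 and Tomato replicate 3 nearly met (0.53 ± 0.13, adjusted p = 0.0278). Plvap, the diaphragm protein of fenestrae and caveolae, was at 3343, 4063 and 4203 CPM in WT Cherry and at 3169, 2382, 2910.1, 2501 and 1949 CPM in Tomato (0.59 ± 0.15, adjusted p = 0.0329). The classical tip markers did not pass: Esm1 was at 105, 69.3 and 45.1 CPM in WT Cherry and 43.3 to 84.1 CPM in Tomato (adjusted p = 0.701), and Apln at 463, 352 and 282 CPM in WT Cherry and 192 to 465 CPM in Tomato (adjusted p = 0.757). Plvap lost its call without WT Cherry replicates 2 or 3 or Tomato replicates 2 or 5 (adjusted p up to 0.233). Angpt2 kept it only without Tomato replicates 3 or 4 (otherwise up to 0.128). The list had 1 rise without WT Cherry replicate 3 or Tomato replicates 2 or 5, and 0 without WT Cherry replicate 2 or when scaled to the pan-endothelial list, where 3 were lower.

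Among VEGF and angiopoietin genes 1 of 14 was higher (Angpt2) and 2 lower. Vegfd, a ligand of VEGF receptors 2 and 3 in humans, was at 0.358, 1.14 and 1.20 CPM in WT Cherry and at 2.62, 5.67, 2.21, 5.99 and 4.24 CPM in Tomato (-2.16 ± 0.47, adjusted p = 0.015). Angpt1, the Tie2 agonist made mainly by perivascular cells, was at 1.51, 0.947 and 1.16 CPM in WT Cherry and at 3.85, 4.61, 3.91, 1.74 and 4.21 CPM in Tomato (-1.61 ± 0.38, adjusted p = 0.0234). Both groups were low in these ligands and did not overlap. Flt1, the decoy receptor VEGFR1, did not pass at 516, 496 and 588 CPM in WT Cherry and 271 to 514 CPM in Tomato (0.51 ± 0.17, adjusted p = 0.104). Vegfd lost its call without WT Cherry replicates 1 or 3 (adjusted p up to 0.0682), and Angpt1 without any of the WT Cherry libraries or Tomato replicates 2 or 5 (up to 0.11). The list had 6 rises without Tomato replicate 3, 1 without Tomato replicate 4 and 0 without any other single library.

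In the S phase and mitosis lists 0 of 20 genes each passed edgeR's test in either direction, with medians of 0.11 and 0.01. DESeq2 also called 0, and at an unadjusted p under 0.05 there was 1 in each list. Scaled to the pan-endothelial list, 3 mitosis genes were called lower (11 at an unadjusted p under 0.05). Without WT Cherry replicate 3, 1 S phase gene was called, and 6 mitosis genes were higher at an unadjusted p under 0.05. The mitosis list summed to 1490.2, 1499 and 1241 CPM in WT Cherry and 1301, 1274, 1420.1, 1567 and 1344 CPM in Tomato, which overlapped throughout. Mki67, the proliferation antigen, was at 61.8, 51.6 and 49.6 CPM in WT Cherry and 51.0 to 72.5 CPM in Tomato. Immediate early genes, which respond to dissociation, gave 0 calls of 16 with edgeR (4 at an unadjusted p under 0.05), 2 higher with DESeq2, and 1 higher without Tomato replicate 1 or 2. Fos, their best known member, was at 3031 to 4096 CPM in WT Cherry and 2819 to 3462 CPM in Tomato. Of 20 interferon genes 1 was higher (Usp18), and of 12 antigen presentation genes 3 were higher (H2-K1, H2-D1 and Psmb8, of MHC class I and the immunoproteasome, 0.47 to 0.54), none of them without WT Cherry replicates 2 or 3 or when scaled to the pan-endothelial list. Usp18 was lost without any of the WT Cherry libraries or Tomato replicates 1, 4 or 5 (adjusted p up to 0.128). In the hypoxia and glycolysis list 0 of 15 were higher and 2 lower, Slc2a1 and Hk2, a hexokinase found at 1.27, 0.985 and 1.03 CPM in WT Cherry and at 27.2, 22.8, 7.29, 25.2 and 31.6 CPM in Tomato (-4.31 ± 0.46, adjusted p = 0.000402).

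The barrier and Wnt list had 0 of 20 higher and 2 lower, Slc2a1 and Itm2a. Slc2a1, the glucose carrier GLUT1 of barrier endothelium and of perineurium, was at 178, 214 and 199 CPM in WT Cherry and at 422, 465, 256, 404 and 341 CPM in Tomato (-0.94 ± 0.18, adjusted p = 0.00722, and 0.0529 without WT Cherry replicate 3). No library of one group reached the other, and Tomato replicate 3 came nearest. Itm2a, a membrane protein, lost its call without any library but Tomato replicate 3 (adjusted p up to 0.261). In intact Tomato nerve Slc2a1 stood at 2292 to 2801 CPM. Cldn5, the endothelial tight junction claudin, overlapped at 766, 834 and 856 CPM in WT Cherry and 504 to 989.7 CPM in Tomato (adjusted p = 0.605).

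**Figure D3:**
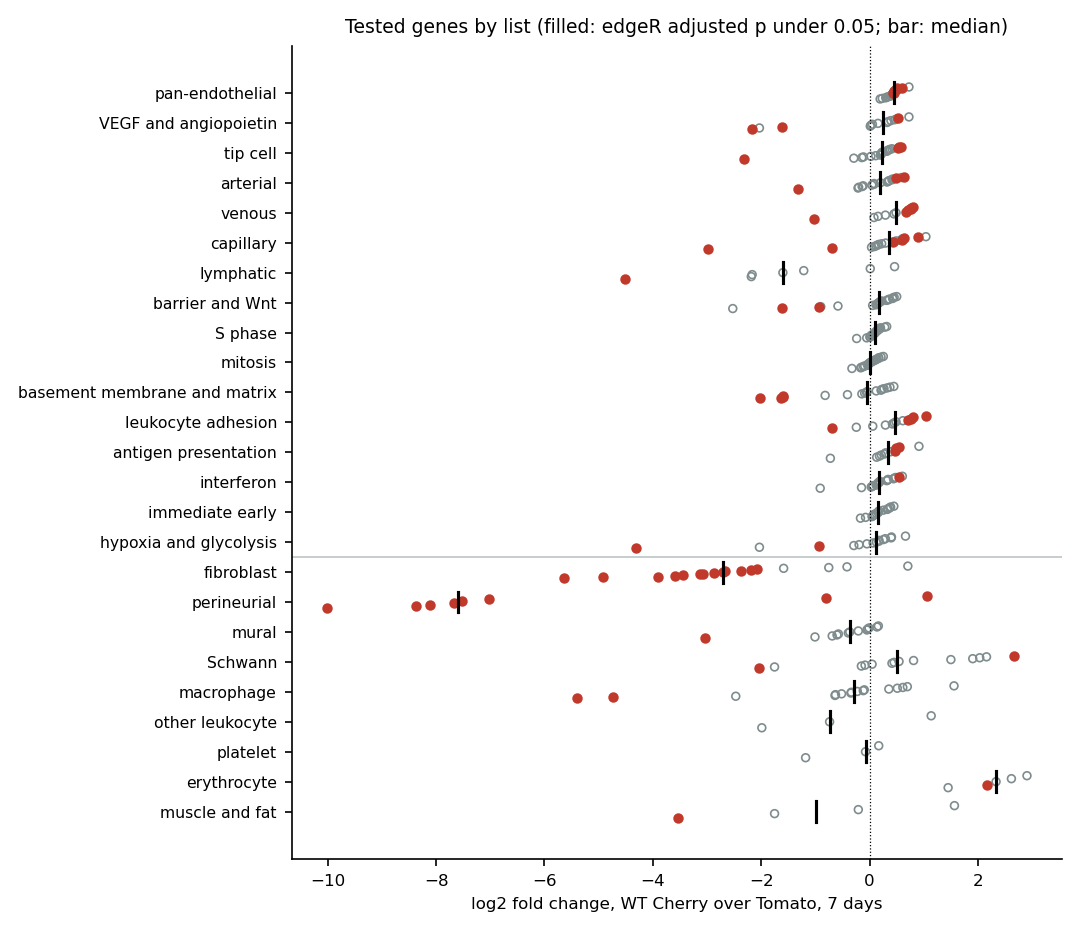
Log2 fold change (WT Cherry over Tomato, 7 days) of each tested gene in 25 lists, filled where the edgeR adjusted p was under 0.05, with the list median as a bar. Among the endothelial lists (above the line) the pan-endothelial median lies at 0.44 and the lymphatic one at -1.60, while the fibroblast and perineurial medians lie at -2.70 and -7.60.

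Of 7 tested lymphatic genes (8 listed) 1 was called lower in WT Cherry, Pdpn, and 4 had no overlap between the groups. Over all tested genes 6.27% were called lower and 12.1% did not overlap. The median log2 fold change of the list was -1.60. DESeq2 and the pan-endothelial scaling each called 5 lower. The list summed to 145, 171 and 211 CPM in WT Cherry and to 349.5, 582, 356, 371 and 338 CPM in Tomato, with Tomato replicate 2 the highest. Prox1, the master regulator of lymphatic identity, was at 2.83, 3.60 and 6.27 CPM in WT Cherry and at 10.8, 25.1, 19.4, 7.89 and 6.64 CPM in Tomato. The groups were apart by a narrow margin and the test was not passed (-1.60 ± 0.48, adjusted p = 0.0767). Lyve1, a hyaluronan receptor of lymphatics and some macrophages, was at 9.40, 15.1 and 30.5 CPM in WT Cherry and at 46.7, 156, 71.5, 65.0 and 61.9 CPM in Tomato (-2.17 ± 0.55, adjusted p = 0.0607).

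Pdpn, podoplanin, also marks fibroblasts and perineurium. It was at 2.75, 4.51 and 8.42 CPM in WT Cherry and at 118, 139, 48.2, 150.4 and 133.2 CPM in Tomato (-4.52 ± 0.42, adjusted p = 0.00055). Tomato replicate 3 was the lowest of its group for Pdpn but not for Prox1 or Lyve1. The lymphatic list had 4 lower calls without WT Cherry replicate 3, 2 without Tomato replicate 2, and 5 when scaled to the pan-endothelial list.

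The widest gap lay in RNA of other cell types. In a bulk library fewer cells of a type and less RNA per cell cannot be told apart. Of 8 perineurial genes 7 were lower and 1 higher in WT Cherry, with a median of -7.60. The list summed to 291, 260.2 and 269.7 CPM in WT Cherry and to 866, 838, 362, 1103 and 992 CPM in Tomato, and nearly all of the WT Cherry sum came from Itgb4 and Moxd1. Cldn1 (chromosome 16, 26356642-26371841, minus strand), the claudin of perineurial tight junctions, was at 1.39, 0.947 and 2.75 CPM in WT Cherry and at 304, 329, 66.8, 476 and 442 CPM in Tomato. WT Cherry was near 0, and Tomato replicate 3 was far below the other Tomato libraries (-7.53 ± 0.70, adjusted p = 0.00095). Without WT Cherry replicate 3 the list had 5 lower calls, and scaled to the pan-endothelial list 0 higher and 7 lower.

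Msln, mesothelin, a surface protein of mesothelium, was at 0.119, 0 and 0.258 CPM in WT Cherry and at 158, 132, 29.6, 188 and 172 CPM in Tomato (-10.02 ± 0.95, adjusted p = 0.000984). Krt19, a simple epithelial keratin, was at 0, 0.189 and 0.343 CPM in WT Cherry and at 37.1, 38.0, 5.39, 58.6 and 52.8 CPM in Tomato (-7.67 ± 0.99, adjusted p = 0.00355, and 0.0668 without WT Cherry replicate 3). Perp, a desmosome-associated protein, was at 0, 0 and 0.429 CPM in WT Cherry and at 12 to 60.5 CPM in Tomato. Every one of these genes was nearly absent from the KO Cherry libraries too, at up to 6.40 CPM for Cldn1 and 0.573 CPM for Msln. They were high in intact Tomato nerve, where Cldn1 was at 908 to 1912 CPM and Msln at 252 to 536 CPM, and at 14 days, where Cldn1 was at 687 to 1557 CPM.

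Itgb4 and Moxd1 departed from this pattern. Itgb4, an integrin of basement membrane anchorage, was at 77.6, 90.0 and 128 CPM in WT Cherry and at 201, 185, 163, 170.3 and 139 CPM in Tomato (-0.81 ± 0.17, adjusted p = 0.0135, lost without WT Cherry replicates 1 or 2 with adjusted p up to 0.08). Moxd1, a monooxygenase-like protein, was higher, at 212, 169 and 138 CPM in WT Cherry and at 79.1, 64.5, 79.2, 92.2 and 107 CPM in Tomato (1.06 ± 0.17, adjusted p = 0.00283). In KO Cherry, Moxd1 was at 54.6, 52.4 and 53.3 CPM, below every library of both groups.

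Fibroblast genes were lower in 13 of 17 and higher in none, with a median of -2.70. The list summed to 1254, 1682 and 2927 CPM in WT Cherry and to 14335, 13046, 5092, 23494 and 23755 CPM in Tomato. The groups did not overlap, Tomato replicate 3 was lowest in 15 of 17 genes, and the count was 15 without it and 8 without WT Cherry replicate 3. Dcn (chromosome 10, 97479609-97518143, plus strand), the matrix proteoglycan decorin, was at 61.8, 67.7 and 62.5 CPM in WT Cherry and at 3423, 3611, 679.8, 4599.9 and 5257 CPM in Tomato (-5.64 ± 0.68, adjusted p = 0.00274). Pdgfra, the PDGF receptor of fibroblasts, was at 4.54, 1.29 and 3.05 CPM in WT Cherry and at 35, 52.4, 11.6, 35.9 and 47.5 CPM in Tomato (-3.60 ± 0.61, adjusted p = 0.00997). Without WT Cherry replicate 3 the adjusted p was 0.0509 for Dcn and 0.121 for Pdgfra.

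Col1a1, a chain of fibrillar collagen I, was at 222, 361 and 706 CPM in WT Cherry and at 3711, 2543, 1307, 6561 and 5859 CPM in Tomato (-3.12 ± 0.34, adjusted p = 0.000918). WT Cherry replicate 3 was the highest of its group. The ratio of Col1a1 to Dcn counts was 3.59, 5.33 and 11.3 in WT Cherry and 1.08, 0.704, 1.92, 1.43 and 1.11 in Tomato, without overlap. The ratio of Dcn to Cldn1 counts was 44.3, 71.4 and 22.8 in WT Cherry and 11.3, 11, 10.2, 9.66 and 11.9 in Tomato, also without overlap. These 2 ratios were chosen after values were seen and were not tested.

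In the matrix list 4 of 17 genes were lower, Fn1, Col5a1, Col5a2 and Col6a1, and none was higher (6 lower with DESeq2 and 9 when scaled to the pan-endothelial list). Fn1, fibronectin, was at 385, 331 and 169 CPM in WT Cherry and at 998, 843, 1039.6, 593 and 704 CPM in Tomato (-1.60 ± 0.15, adjusted p = 0.000157). Here Tomato replicate 3 was the highest of its group, and the call held in all 8 fits that left out 1 library. Col4a1, the basement membrane collagen of vessels, overlapped at 4339, 4797 and 4275 CPM in WT Cherry and 2343 to 5388 CPM in Tomato (adjusted p = 0.403).

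**Figure D4:**
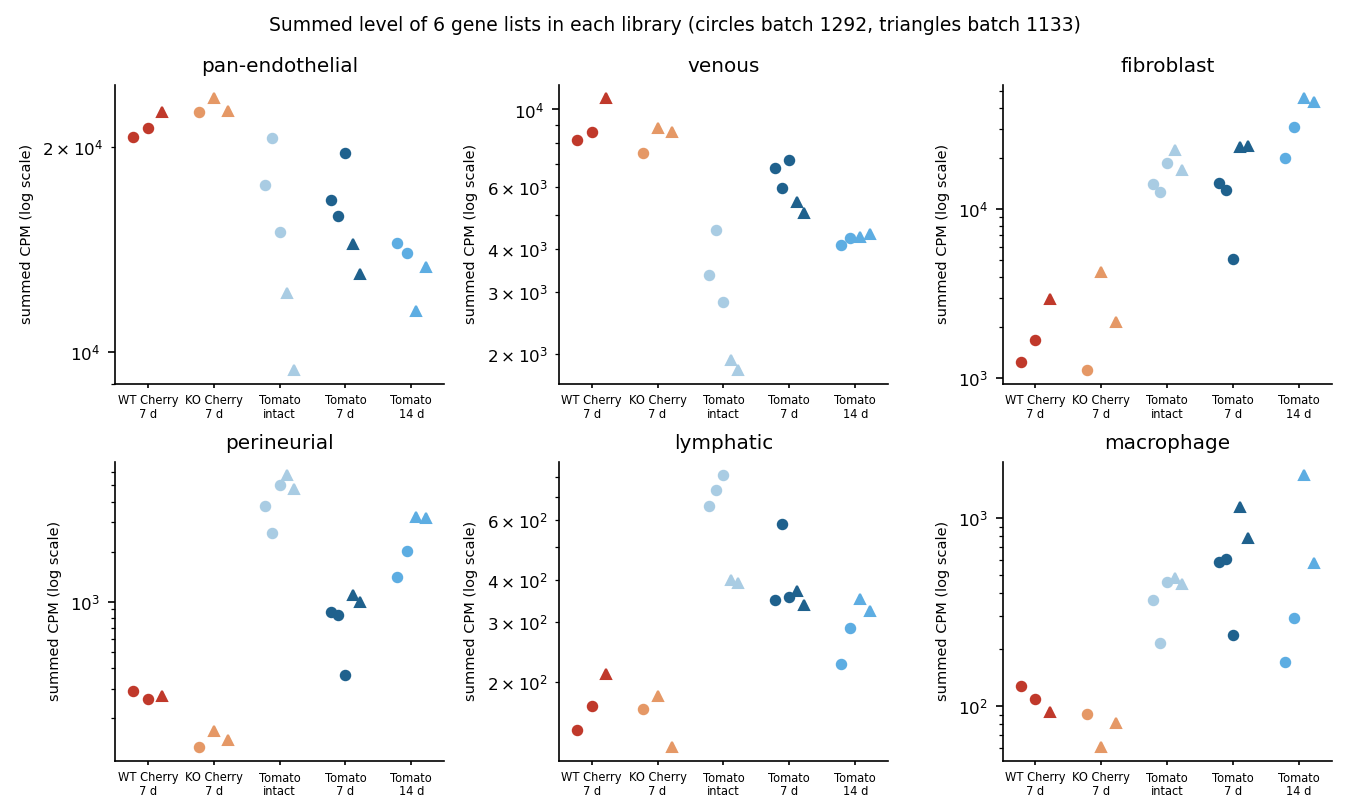
Summed CPM of 6 gene lists (log axis) in all 20 libraries, WT Cherry leftmost, then KO Cherry and Tomato nerve intact, at 7 and at 14 days, with circles for batch 1292 and triangles for batch 1133. At 7 days the fibroblast sum is 1254 to 2927 CPM in WT Cherry and 5092 to 23755 CPM in Tomato, and one Tomato library, replicate 3, lies nearest to Cherry for both fibroblast and perineurial genes.

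Of 13 mural genes 1 was lower (2 with DESeq2 or without Tomato replicate 1, and 7 when scaled to the pan-endothelial list): Cspg4, the NG2 proteoglycan of pericytes, at 9.20, 7.31 and 4.94 CPM in WT Cherry and 69.9, 61.4, 38.9, 57.6 and 57.7 CPM in Tomato (-3.03 ± 0.24, adjusted p = 8.05e-05). The pericyte genes Rgs5 (793, 795 and 715 CPM in WT Cherry, 329 to 1174 CPM in Tomato) and Pdgfrb (63.5, 74.6 and 132 CPM in WT Cherry, 68.7 to 159.7 CPM in Tomato) overlapped. Ptprc, which encodes CD45, was at 0 to 0.816 CPM in WT Cherry and 0.048 to 1.55 CPM in Tomato, with both groups near 0.

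Of 16 macrophage genes 2 were lower, Arg1 and Spp1, which other cells also make. Spp1, osteopontin, was at 32.7, 14.6 and 6.40 CPM in WT Cherry and at 487, 472, 157, 692 and 672 CPM in Tomato (-4.73 ± 0.82, adjusted p = 0.0177). Arg1, arginase 1, was at 1.51, 0.644 and 0.730 CPM in WT Cherry and at 33.1, 63.0, 11.3, 53.6 and 52.8 CPM in Tomato (-5.40 ± 0.71, adjusted p = 0.00349). Both were lowest in Tomato replicate 3, while Lyz2 was highest in Tomato replicate 4. Spp1 lost its call without WT Cherry replicates 2 or 3 or Tomato replicate 2 (adjusted p up to 0.111), and Arg1 without WT Cherry replicate 3 (0.0624).

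Of 14 tested Schwann cell genes 10 had a positive log2 fold change, with a list median of 0.50. In this list 1 gene was lower and 12 were not called, beside 6.27% of all tested genes lower. Gap43, a growth-associated protein of axons and repair Schwann cells, was the lower one, at 0.876, 2.12 and 0.773 CPM in WT Cherry and at 1.58, 7.98, 7.49, 3.89 and 3.80 CPM in Tomato. The groups overlapped, with Tomato replicate 1 inside the WT Cherry range, and the call (-2.04 ± 0.53, adjusted p = 0.0362) was lost without WT Cherry replicates 1 or 3 or Tomato replicates 2, 4 or 5 (up to 0.154). Of 5 erythrocyte genes 1 was higher (Alas2, of haem synthesis), lost without any library but WT Cherry replicate 1 (adjusted p up to 0.47). The erythrocyte sum was 58.1, 371 and 34.9 CPM in WT Cherry and 28.4, 53.9, 10.8, 14.4 and 10.4 CPM in Tomato, with WT Cherry replicate 2 far above the rest. No platelet or other leukocyte gene was called by edgeR or DESeq2, or passed at an unadjusted p under 0.05, with 3 members of each list tested, and of 4 tested muscle and fat genes 1 was lower (Tnnt3, a fast muscle troponin).

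Over all genes, those with the deepest falls and at least 3 in average log2 CPM were Egfl6, Msln, Epyc, Lypd2, Snhg11, Ctxn3, Perp, Smoc2, Krt19, Slc6a13, Cldn1 and Sfrp5. In each, Tomato replicate 3 was the lowest Tomato library. The choice of these genes required that the groups did not overlap. Egfl6, a secreted EGF-repeat protein, was at 0, 0.0379 and 0.0429 CPM in WT Cherry and at 32.9, 39.0, 6.48, 62.9 and 58.3 CPM in Tomato. Its 2 reads in WT Cherry against 5236 in Tomato give a ratio of Tomato to WT Cherry of 1559 (95% counting interval 431 to 12877). Smoc2, a matricellular calcium-binding protein, was at 6.41, 4.93 and 5.80 CPM in WT Cherry and at 1492, 1245, 298, 1878 and 1711 CPM in Tomato (-7.75 ± 0.70, adjusted p = 0.000866). Sfrp5, a secreted Wnt inhibitor, was at 0.597, 0.417 and 8.11 CPM in WT Cherry and at 462, 471, 81.9, 697 and 372 CPM in Tomato, beside 2042 to 5432 CPM in intact Tomato nerve. Of these 12, Lypd2, Krt19 and Slc6a13 missed the threshold without WT Cherry replicate 3 (adjusted p up to 0.084), and Sfrp5 without WT Cherry replicates 1 or 2 (up to 0.0825).

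Among the genes with the largest rises, many were annotated pseudogenes or copies of another gene. In GENCODE M21, 4.72% of the tested genes are pseudogenes. They made up 9.09% of the 330 higher calls, 31.5% of the 92 higher by at least 2-fold, 53.1% of the 49 higher by at least 4-fold and 76.5% of the 17 higher by at least 16-fold. Of the 1112 lower calls 0.629% were pseudogenes. Higher calls were spread over the genome, at 1.09% (chromosome 5) to 2.84% (chromosome 18) of the tested genes on each autosome and the X. The pseudogene Gm15772, singled out after its values were seen, was at 125, 98.7 and 77.7 CPM in WT Cherry and at 1.93, 1.44, 1.13, 1.51 and 1.31 CPM in Tomato. The KO Cherry libraries stood with WT Cherry, at 119, 80.8 and 88.4 CPM (WT Cherry over Tomato 6.07 ± 0.18, adjusted p = 2.25e-08).

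Ly6c2 (chromosome 15, 75108161-75111970, minus strand), a GPI-anchored Ly6 surface protein, was at 16, 23.6 and 23.5 CPM in WT Cherry and at 0.247, 0.0961, 0.242, 0.674 and 0.464 CPM in Tomato (6.04 ± 0.33, adjusted p = 8.18e-06). KO Cherry libraries were at 28.5, 26.8 and 20.3 CPM, so all 6 Cherry libraries were high and all 5 Tomato libraries near 0. The related gene Ly6c1 was at 717, 693 and 690.3 CPM in WT Cherry and at 739.9, 887, 628, 651 and 637 CPM in Tomato, and the sum of both genes was 721 ± 10.5 CPM in WT Cherry and 709 ± 109 CPM in Tomato (SD, n = 3 and 5). Ly6c1 makes up nearly all of that sum in every library, so the sum says little of Ly6c2.

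Other risen genes also resemble a gene of higher level. Eno1b was at 31.2, 19.6 and 12.5 CPM in WT Cherry and 0.362 to 0.642 CPM in Tomato, beside Eno1, the glycolytic enolase, at 331, 434 and 290.1 CPM in WT Cherry and 323 to 404 CPM in Tomato. Vcp-rs was at 46.8, 44.7 and 26.1 CPM in WT Cherry and 3.14 to 4.73 CPM in Tomato, beside Vcp, an AAA ATPase, at 246, 248 and 315 CPM in WT Cherry and 287 to 355 CPM in Tomato. Rpl3-ps1 was at 19.7, 28.8 and 33.3 CPM in WT Cherry and 5.23 to 10.6 CPM in Tomato, beside Rpl3, a ribosomal protein gene, at 843, 875 and 939 CPM in WT Cherry and 772 to 1067 CPM in Tomato. Each of these partners overlapped between the groups. Ddx19a, an RNA helicase of a level like that of Ddx19b, was still higher with the counts of both added (1.23, adjusted p = 0.000514), a sum chosen after the data were seen. How reads that align to several places were counted is not stated here, so the levels of such copies are uncertain, and the part of that counting in the rises was not tested.

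**Figure D5:**
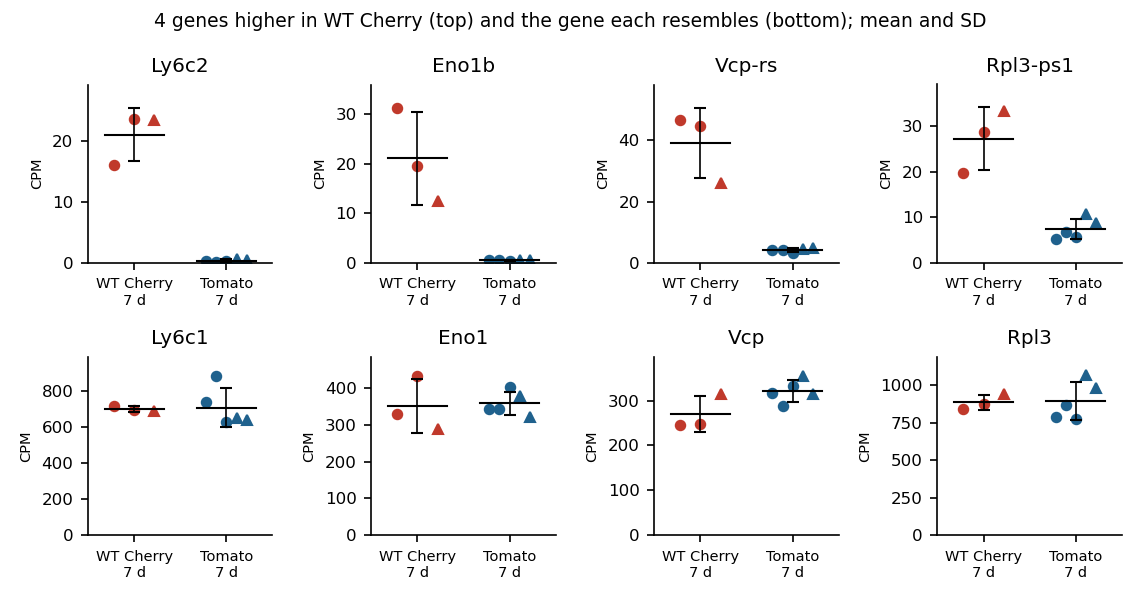
CPM in each library, with mean and SD, of 4 genes called higher in WT Cherry (top row) and the gene each resembles (bottom row), WT Cherry (3 libraries) left of Tomato (5 libraries). The upper genes are separate, which their choice required. The means of Ly6c2 are 21.1 CPM in WT Cherry and 0.345 CPM in Tomato, while the lower genes overlap.

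No copy was examined for the following rises. Rbp7 (chromosome 4, 149449687-149454978, minus strand), a retinol-binding protein of endothelial and fat cells, was at 59.6, 87.4 and 54.5 CPM in WT Cherry and at 21.1, 20.3, 19.4, 11 and 12.2 CPM in Tomato. The log2 fold change was 1.99 ± 0.15 (adjusted p = 5.01e-05), and KO Cherry was at 102, 46.9 and 45.2 CPM. Emilin2, an elastic fibre glycoprotein, was at 15.1, 19.6 and 21.1 CPM in WT Cherry and 3.74 to 6.94 CPM in Tomato (1.95 ± 0.22, adjusted p = 0.000341). Cap1, an actin-regulating protein, was at 289, 172 and 185 CPM in WT Cherry and at 71.2, 71.7, 37.7, 107 and 96.9 CPM in Tomato (1.58 ± 0.29, adjusted p = 0.0106, and 0.0532 without Tomato replicate 2). Tnfrsf11a, the receptor RANK, was at 16.7, 12.3 and 22 CPM in WT Cherry and 4.20 to 8.02 CPM in Tomato (1.51 ± 0.25, adjusted p = 0.00287).

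Tmem87a, a Golgi and membrane protein, was another of these rises. It was at 43.2, 43.9 and 47.1 CPM in WT Cherry and at 14.8, 17.3, 13.7, 17.4 and 16.8 CPM in Tomato (1.49 ± 0.12, adjusted p = 0.000102). KO Cherry libraries carried the same reporter but were at 25.0, 23.1 and 17.5 CPM, between the groups. Of the strain-variable genes, a list of loci known to differ between inbred mouse lines, 4 of 7 were tested and 1 was higher, Wdfy1 (0.56 ± 0.15, adjusted p = 0.0437), which was lost without any library but Tomato replicate 1 (up to 0.179). Nnt, which is partly deleted in one substrain, was at 71.4, 63.5 and 84.8 CPM in WT Cherry and 56.3 to 74.9 CPM in Tomato (adjusted p = 0.216).

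Some genes were seen with almost no reads in one group. In WT Cherry but under 0.1 CPM in every Tomato library were the unnamed gene models Gm7125, AC125456.1 and AC131675.2, with Gm7125 highest at 3.90, 3.83 and 3.18 CPM. Gm20305 and Gm9855 were under 0.1 CPM in every Tomato library but also in WT Cherry replicate 3 (0.0429 and 0 CPM), and neither was tested. In Tomato but under 0.1 CPM in every WT Cherry library were Egfl6, Gm46606, Dleu7, Krt7 and Folr1. Krt7, a simple epithelial keratin, was at 0.0398, 0 and 0 CPM in WT Cherry and at 2.57, 3.08, 1.69, 11 and 5.05 CPM in Tomato. Gt(ROSA)26Sor, the transcript of the locus that carries the Tomato cassette, overlapped at 26.9, 25.8 and 16.7 CPM in WT Cherry and 13.4 to 33.0 CPM in Tomato (adjusted p = 0.96).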

How the data were processed

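Bulk polyA RNA-seq counts were used from 20 libraries of sorted mouse sciatic nerve endothelial cells, 8 of them in the tests. The authors deposited raw whole-number counts per gene, per the file headers, in 1 table for each reporter, and the tables were joined by gene symbol (55376 genes). The submitters' processing notes name mm10 (GRCm38), featureCounts 1.6.4, STAR 2.5.3a, Trimmomatic 0.39 and Cell Ranger 3.0.2, with no role or order. A further table of batch-corrected Cherry counts was not used.

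Counts were filtered (filterByExpr), TMM-scaled and tested with edgeR 4.0.16 (R 4.3.3, limma 3.58.1; robust quasi-likelihood F test, batch as covariate), and the test was checked on simulated data. Standard errors are the absolute log2 fold change over the square root of F. CPM for all 20 libraries use 1 scale; batch differences in text are of log2(CPM + 1). Alternatives included DESeq2 1.42.0. Figures used Python 3.11.15. Named genes were up to 12 rises and 12 falls of greatest fold (called, average log2 CPM of at least 3, no overlap, 1 sign in both batches, no bare gene model), the first 2 symbols and the top 3 called members per direction of each list, the reporter and sex-linked genes, and up to 5 on-off genes per direction; others named were chosen after their values were seen, namely the remaining called list members, copy partners, Lyz2, Rgs5, Cldn5, Glycam1, Gm15772 and the genes under other observations. The members and lists were chosen with earlier results of these data known. Replicates are pooled-nerve libraries whose animals the labels do not identify, so the spread behind the p-values may be technical. Replicate pairs differed beyond sampling noise (chi-square per degree of freedom 15.4 to 113 over 13 pairs). Intervals cover counting error only. 1 Schwann cell gene is not reported here.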

Additional observations from a re-analysis of the deposited data

Results flagged for a closer look

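Among the 5 Tomato libraries at 7 days, a gene or sum was flagged when the highest or lowest library lay far from the rest, with the gap to its nearest neighbour above 0.71 of the whole range. Of 160 genes, sums and ratios checked 28 were flagged. Chance alone flags about 0.05 of unrelated groups. These items were not unrelated: sums hold some of the same genes, and some genes were chosen for deep falls. The 28 flags are therefore not separate events. In 18 of them the lone low library was Tomato replicate 3. For fibroblast genes the gap was 0.79 of the range for Dcn, 0.765 for Lum, 0.735 for Mfap5 and 0.727 for Pdgfra. For perineurial genes it was 0.77 for Cldn1, 0.748 for Lypd2, 0.799 for Krt19, 0.808 for Msln, 0.718 for Perp and 0.753 for the sum of the list. Further genes low in Tomato replicate 3 were Ctxn3 (0.742), Gm46606 (0.724), Hk2 (0.771), Itm2a (0.725), Pdpn (0.79), Slc6a13 (0.802), Smoc2 (0.776) and Spp1 (0.741). The ratio of Kdr to Cdh5 counts was highest in the same library, with a gap of 0.741.

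Tomato replicate 1 was the highest in Y-linked RNA, with a gap of 1 for Ddx3y, 1 for Eif2s3y, 1 for Uty and 0.99 for Kdm5d, and was the lowest for Xist (0.848). Ddx3y was at 42.4, 37.7 and 34.5 CPM in WT Cherry and at 113, 0, 0, 0 and 0 CPM in Tomato. The sum of the lymphatic list was highest in Tomato replicate 2 (0.828), and Angpt1 was lowest in Tomato replicate 4 (0.796). Gm7125 (1) and the muscle myosin Myh4 (0.733) were highest in Tomato replicate 5. Gm7125 had 2 reads over all Tomato libraries, so its gap of 1 comes from zeros in the others.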

How the results depend on the processing

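The joint table had 330 genes higher and 1112 lower in WT Cherry. The higher count was 73 when scaled to the pan-endothelial list, 680 with no filter on low counts, 218 with a minimum of 5 CPM in 3 libraries, 542 with DESeq2 (4 genes without an adjusted p), 170 with no batch term, 69 with the Y-linked sum as a covariate, 125 over all 20 libraries, 101 in batch 1292 alone and 556 in batch 1133 alone. It was 138 to 484 when 1 library was left out. The lower count was 3311 when scaled to the pan-endothelial list, 455 in batch 1292 alone and 651 to 1446 when 1 library was left out. Of the 330 higher genes 73 remained called with the pan-endothelial scaling, and all 1112 lower genes did. The log2 fold change of Kdr passed with no filter (0.77, adjusted p = 1.39e-07) and with DESeq2 (0.72, 0.0105). Over the 11 libraries at 7 days it also passed (0.71, 0.0436). In batch 1292 alone it was 0.37 and did not pass (adjusted p = 0.559). In batch 1133 alone, where WT Cherry has 1 library and so no spread, it was 1.29. The log2 fold change of Kdr was 0.38 to 0.91 when 1 library was left out. Cdh5 turned to -0.20 with the pan-endothelial scaling and to -0.0054 with the Y-linked covariate, and Pecam1 to -0.016 with that scaling. The log2 difference of the Kdr to Cdh5 ratio was 0.35 to 0.62 when 1 library was left out. The summed counts of Vcp-rs and Vcp, which Vcp dominates, gave -0.069, so this alternative, chosen after seeing the data, says little of Vcp-rs. For 83 named genes over 20 other fits and the summed copies, 1324 values kept direction and call, 321 lost the call, 7 gained one and 2 reversed, and the cause was not tested. No paired analysis was possible because replicate numbers only name the libraries. The 8 libraries hold at least 20460409 counts each, but 3 WT Cherry libraries, 1 of them alone in batch 1133, limit the precision of every difference.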

Other observations

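Several genes were singled out after their values were seen. Apod, the lipid-binding apolipoprotein D of nerve stroma, had the highest Tomato level among them, at 116, 41.4 and 35.1 CPM in WT Cherry and at 6351, 4119, 797, 4753 and 4568 CPM in Tomato (log2 fold change -6.05 ± 0.96, adjusted p = 0.0128, lost without WT Cherry replicates 2 or 3 with adjusted p up to 0.106). Igfbp6, a binding protein of insulin-like growth factors, was at 7.13, 12.6 and 14.1 CPM in WT Cherry and at 926, 1039, 169, 1826 and 1647 CPM in Tomato. Thbs4, a matrix thrombospondin, was at 7.45, 5.08 and 4.77 CPM in WT Cherry and at 823, 709.7, 177, 1473 and 1427 CPM in Tomato. For all 3 genes Tomato replicate 3 was the lowest Tomato library and still above WT Cherry. KO Cherry libraries were also low, at 22 to 45.2 CPM for Apod.

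Csf2rb, the beta chain shared by cytokine receptors, was at 368, 405 and 479 CPM in WT Cherry and at 246, 206, 257, 158 and 163 CPM in Tomato (1.03 ± 0.16, adjusted p = 0.00207). Its close relative Csf2rb2 was at 285, 303 and 472 CPM in WT Cherry and at 125 to 239 CPM in Tomato (1.04 ± 0.24, adjusted p = 0.0249, lost without WT Cherry replicate 3 or Tomato replicates 4 or 5 with adjusted p up to 0.0905). Both were without overlap, and reads could have been divided between them.

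Gatm, an enzyme of creatine synthesis, was at 40.2, 27.5 and 63.7 CPM in WT Cherry and at 23.1, 17, 15.7, 14.5 and 11.7 CPM in Tomato (1.41 ± 0.27, adjusted p = 0.00802, and 0.0596 without WT Cherry replicate 3). KO Cherry libraries, at 15.9, 30.4 and 15.9 CPM, overlapped both.

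Some genes were far lower in intact nerve than with both reporters at 7 days. Chga, chromogranin A, was at 180.0, 223 and 193 CPM in WT Cherry and at 203, 176, 351, 323 and 199.6 CPM in Tomato, against 0.475 to 2.82 CPM in intact Tomato nerve. Mest, an imprinted gene, was at 1875, 1654 and 1216 CPM in WT Cherry and at 1076, 843, 1522, 1338 and 1078 CPM in Tomato, against 16.7 to 26.2 CPM in intact nerve. The groups at 7 days overlapped for each (adjusted p = 0.512 for Chga and 0.266 for Mest).

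In the sex-linked list 0 of 5 genes were called by edgeR or DESeq2, and none passed at an unadjusted p under 0.05, with 4 called higher without Tomato replicate 1. Xist was at 383, 283 and 167 CPM in WT Cherry and at 0.0494, 588, 417, 241 and 223 CPM in Tomato.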
